A study of Mus musculus with 4 samples.

Results

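The costimulatory and checkpoint surface receptors of lung group 2 innate lymphoid cells (ILC2s) were examined at the RNA level in cells cultured with the Orai channel blocker compound 5D or with vehicle. The 10 genes were listed by name and matched to the gene symbols of the deposited table. They are the TNF receptor genes Tnfrsf18, Tnfrsf9, Tnfrsf4 and Tnfrsf1b, the costimulatory receptor Icos and its ligand Icosl, the checkpoint receptor genes Pdcd1 and Ctla4, and the surface marker genes Klrg1 and Thy1. All 10 of 10 were found among the 22554 genes of the table, and all 10 passed the filter on low counts that left 17650 genes to test. The study showed Klrg1, Tnfrsf4, Thy1 and Icos itself among its ILC2 marker genes, from the same libraries, so these genes were not chosen independently of the data.

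ILC2s are tissue-resident lymphocytes without antigen receptors that answer to alarmins such as IL-33 and to costimulation by making type 2 cytokines. TNF family receptors such as GITR, 4-1BB and OX40 bind ligands on neighbouring cells and recruit TRAF adaptors that pass the signal on to NF-kB. ICOS, PD-1 and CTLA-4 belong to the CD28 family, of which ICOS acts through phosphatidylinositol 3-kinase and PD-1 restrains activated cells through phosphatases. Orai proteins form the pore of the channel through which calcium enters a lymphocyte after store release, and calcium drives the NFAT factors that many activation-induced receptor genes answer to in T cells.

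The cells were sorted from the lungs of BALB/c mice at 6 weeks of age, as lineage-negative CD45+ ST2+ CD127+ cells in the methods of the study. All 4 libraries came from cells kept with IL-2, IL-7 and IL-33, and the groups differed in the addition of compound 5D, a pan-Orai inhibitor, or of its vehicle, with 2 libraries in each group. Culture is called overnight in the sample labels and is given as 1 day in the methods, and no untreated or unstimulated cells were compared. The labels do not say whether the libraries of a group came from separate mice or cultures, so the p-values measure only the spread between these libraries, which may be technical. In RNA from a whole culture, fewer cells of a type and less RNA per cell cannot be told apart.

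Library totals were 23239853 and 20096555 counts with vehicle and 26912708 and 28697265 counts with 5D, so every 5D library was the deeper one, and mitochondrially encoded genes took 0.981% and 1.06% of the counts with vehicle and 0.809% and 0.808% with 5D. In a fit without the mitochondrially encoded genes, the log2 fold changes shifted by a median of -0.000487. Whether depth or the mitochondrial share otherwise had a part in the results was not tested. The libraries carried the ILC2 markers Ptprc, Il7r, Il1rl1 and Gata3 in depth, with Gata3 at 1091 and 1099 normalized CPM (counts per 1000000 counts of a library, after scaling) with vehicle and 1095 and 1108 with 5D. The 11 ILC2 markers in the table summed to 10520 and 10360 CPM with vehicle and to 9763 and 10180 with 5D. The largest part was Il5, at 4752 and 4710 CPM with vehicle and 4377 and 4548 with 5D. Of the 11, 4 had a lower and 7 a higher estimate in 5D. The summed level of 7 T cell markers ranged from 28.33 to 30.27 CPM with vehicle and from 29.22 to 29.24 with 5D, mostly from Cd3g with 445 to 702 counts and Cd3e with 63 to 112. Cd4 was at 0 in every library, and Trac, the constant part of the T cell receptor alpha chain, had 0 to 8 counts. Foxp3, a regulatory T cell marker on that list, had 92 and 46 counts with vehicle and 50 and 45 with 5D (log2 fold change -0.88 ± 0.36 SE, unadjusted p = 0.0321 in edgeR's quasi-likelihood test). The 3 B cell markers summed to 16.02 and 20.84 CPM with vehicle and to 15.36 and 17.38 with 5D, mostly from Cd79b. The 5 natural killer and ILC1 markers in the table summed to 50.33 and 46.02 CPM with vehicle and to 70.67 and 53.89 with 5D, mostly from Gzma, while Ncr1, Eomes and Tbx21 had 0 to 7 counts. Gzma had 1124 and 894 counts with vehicle and 1907 and 1498 with 5D (log2 fold change 0.40 ± 0.12 SE, unadjusted p = 0.00846 in edgeR). The 11 myeloid markers summed to 24.63 to 28.93 CPM with vehicle and to 25.01 to 25.83 with 5D, mostly from H2-Ab1, with S100a9 at 0. The 5 mast cell, basophil and eosinophil markers summed to 3.498 to 5.985 CPM with vehicle and to 5.932 to 10.6 with 5D, with Mcpt4 at 0. Of these, Tpsb2 had 10 and 25 counts with vehicle and 31 and 161 with 5D (log2 fold change 2.03 ± 0.68 SE, unadjusted p = 0.0118 in edgeR), and Fcer1a had 20 and 11 against 25 and 61 (1.10 ± 0.54, unadjusted p = 0.0652 in edgeR). The 7 epithelial, endothelial and stromal markers summed to 46.77 to 49.94 CPM with vehicle and to 43.54 to 45.47 with 5D, from Epcam and Pecam1, with Scgb1a1, Col1a2 and Pdgfra at 0. Pecam1 had 551 and 426 counts with vehicle and 541 and 449 with 5D (log2 fold change -0.34 ± 0.15 SE, unadjusted p = 0.0392 in edgeR). The part of these other cells in the receptor results was not tested.

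Of the 10 receptor genes, 8 had a lower estimate in 5D-treated ILC2s than in vehicle-treated ones, against 50.4% of all tested genes. The other 2, Icosl and Pdcd1, had a higher one, against 49.6%. Of the lower estimates, those of Icos, Tnfrsf1b and Ctla4 changed sign when a library was left out. None of the 10 genes passed an adjusted p of 0.05 in edgeR's quasi-likelihood test, adjusted by Benjamini-Hochberg across all 17650 tested genes. Of all tested genes, 17 or 0.0963% passed, 5 higher and 12 lower. At an unadjusted p of 0.05, 5 of the 10 were lower, namely Tnfrsf18, Tnfrsf9, Tnfrsf4, Klrg1 and Thy1, against 3.84% of all tested genes, and 0 were higher, against 3.5%. DESeq2 and limma-voom also called 0 receptor genes at the adjusted threshold, and at the unadjusted one they gave 4 and 5 lower ones. The 5D libraries were both lower than either vehicle library for those same 5 genes, against 18.8% of all tested genes, and above them for Icosl and Pdcd1, against 18.7%. The median log2 fold change of the 10 was -0.14, with a range from -1.13 to 0.30, beside a median of -0.0016 over all genes tested. For 1 gene in 2 libraries against 2, the smallest p that an exact permutation test allows is 0.333.

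**Figure D1:**
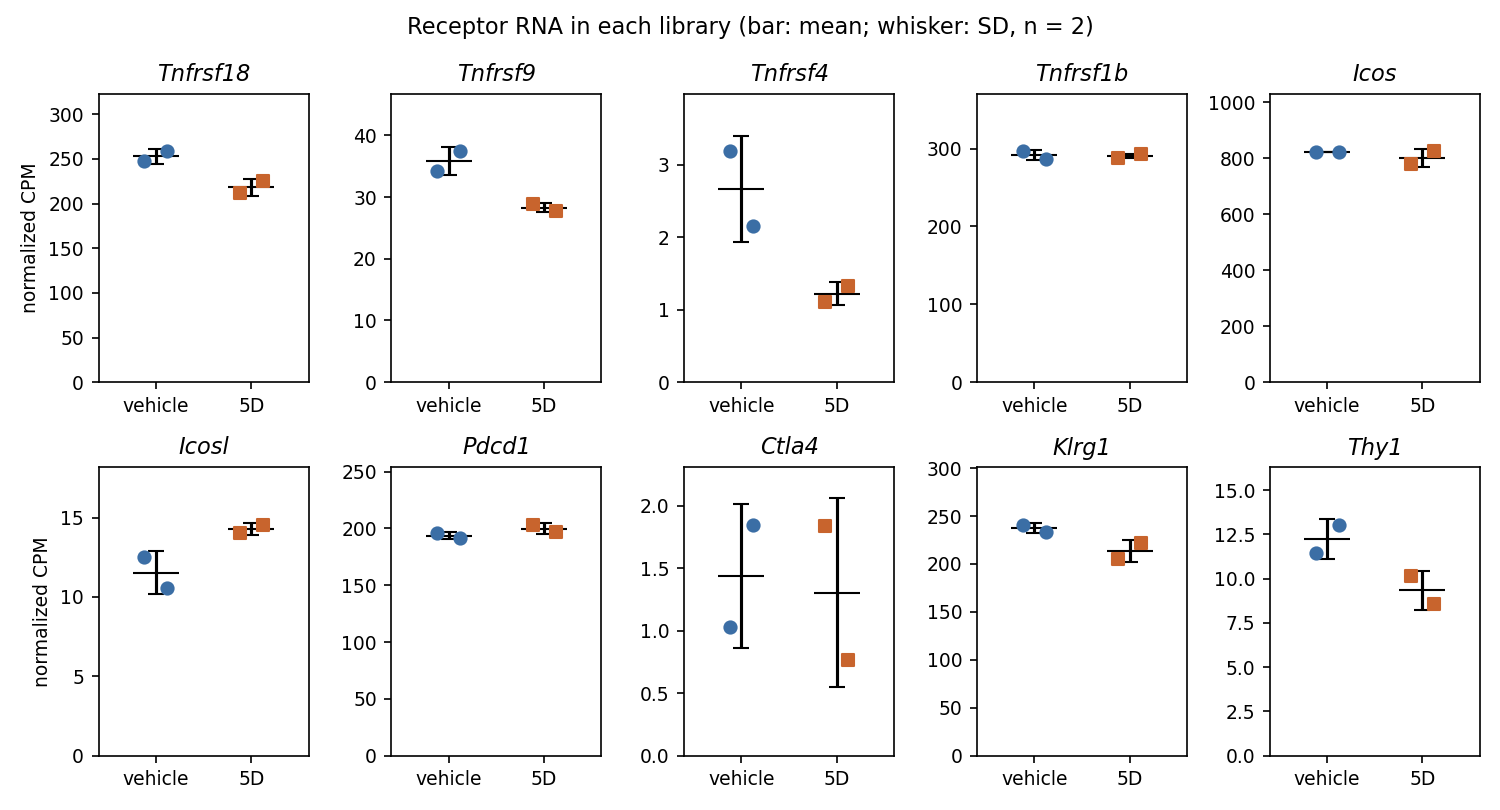
Normalized CPM of each receptor gene (vertical axis, starting at 0 in every panel) in the 2 vehicle libraries (circles) and the 2 5D libraries (squares), with the mean as a bar and the SD (n = 2) as a whisker. The 5D libraries sit below the vehicle libraries for Tnfrsf18, Tnfrsf9, Tnfrsf4, Klrg1 and Thy1, above them for Icosl and Pdcd1, and among them for Tnfrsf1b, Icos and Ctla4.

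**Figure D2:**
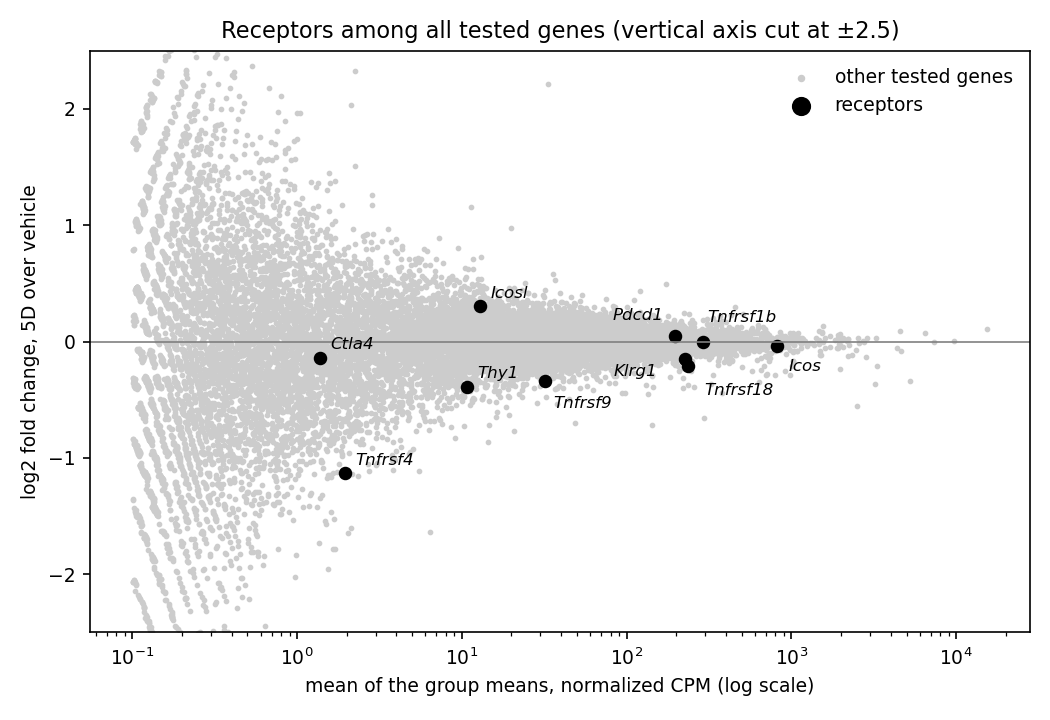
Log2 fold change of 5D over vehicle (vertical axis) against the mean normalized CPM (horizontal axis, log scale) for all 17650 tested genes (grey) and the 10 receptor genes (black, named). Of the receptor genes, Icosl (0.30) and Pdcd1 (0.05) lie above 0 and Tnfrsf4 (-1.13) lies farthest below it, the spread of all genes is wider at low CPM, and 309 tested genes beyond 2.5 in either direction are outside the plotted range.

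Tnfrsf18 encodes GITR, a costimulatory TNF receptor that is high on regulatory T cells and ILC2s. It lies at chr4:156026164-156028895 on the plus strand (mm10, GENCODE M21). The vehicle libraries held 247.3 and 258.7 normalized CPM, and the 5D libraries held 211.8 and 225.1. Both 5D values were below both vehicle values, and the means differed by -34.55 CPM (5D minus vehicle), beside a gap of at most 13.3 CPM between libraries of a group. The log2 fold change was -0.21 ± 0.054 (SE; 95% interval -0.33 to -0.09), with an unadjusted p of 0.00224, the 107th smallest of all tested genes, and an adjusted p of 0.370. Across the alternative settings with all 4 libraries the adjusted p ran from 0.0692 to 0.411. With a library left out, the log2 fold change ran from -0.26 without 5D replicate 2 to -0.17 without 5D replicate 1. An antisense gene, Gm16008, shares 414 bases of exon with Tnfrsf18, and reads of the 2 genes cannot be told apart without strand. Gm16008 was counted at 60 and 56 with vehicle and at 81 and 57 with 5D, against 5178 to 6436 counts for Tnfrsf18.

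Tnfrsf9 encodes 4-1BB, a receptor induced on activated lymphocytes, and lies at chr4:150914562-150946102 on the plus strand. Its level was 34.23 and 37.43 normalized CPM with vehicle and 28.81 and 27.8 with 5D. The groups did not overlap, and the means differed by -7.525 CPM (5D minus vehicle) beside a gap of 3.2 CPM between the vehicle libraries. In edgeR the log2 fold change was -0.34 ± 0.11 (SE; 95% interval -0.57 to -0.11), with an unadjusted p of 0.00800 and an adjusted p of 0.530. Without vehicle replicate 2 the unadjusted p was 0.0520 at a log2 fold change of -0.28.

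Tnfrsf4 encodes OX40, the receptor for the ligand encoded by Tnfsf4, and lies at chr4:156013843-156016612 on the plus strand. It was a low gene, counted 74 and 43 times with vehicle and 30 and 38 times with 5D, or 3.186 and 2.149 against 1.105 and 1.329 normalized CPM. Both 5D libraries were below both vehicle libraries, although their deposited totals were larger. The exact 95% Poisson intervals, which cover counting error only, were 2.502 to 4.0 and 1.555 to 2.894 CPM with vehicle and 0.7458 to 1.578 and 0.9405 to 1.824 CPM with 5D, so that of vehicle replicate 2 overlapped with those of both 5D libraries. This gave a log2 fold change of -1.13 ± 0.38 (SE; 95% interval -1.96 to -0.30), a mean in 5D of 0.456 times that of vehicle, with an unadjusted p of 0.0119 and an adjusted p of 0.552. It was the only one of the 10 genes past a 2-fold difference. Without vehicle replicate 1 the log2 fold change was -0.82 with an unadjusted p of 0.124, and without 5D replicate 1 it was -1.01 with an unadjusted p of 0.0617, by edgeR's quasi-likelihood test.

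Tnfrsf1b encodes TNFR2, the TNF receptor that lacks a death domain, and lies at chr4:145213463-145246870 on the minus strand. It stood at 296.6 and 286.8 normalized CPM with vehicle and at 288.2 and 292.5 with 5D. The 5D libraries fell between the vehicle libraries. The estimated log2 fold change was -0.0068 ± 0.048 (SE; 95% interval -0.11 to 0.10), with an adjusted p of 0.997, and its sign turned under TMM scaling, where it was 0.0024. The interval excludes a difference of the size estimated for Tnfrsf18 or for Klrg1.

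Counts set against Tnfrsf1b within each library do not depend on the scaling between libraries. Both Tnfrsf1b as the reference and the 5 genes set against it were taken after their values were seen, so these ratios describe the same separation on another scale. For every 100 Tnfrsf1b counts, there were 83.38 and 90.22 Tnfrsf18 counts with vehicle and 73.47 and 76.95 with 5D. The same measure for Tnfrsf9 was 11.54 and 13.05 with vehicle and 9.997 and 9.505 with 5D. For Tnfrsf4 it was 1.074 and 0.7493 with vehicle and 0.3835 and 0.4543 with 5D. Klrg1 gave 81.22 and 81.44 against 71.3 and 75.86, and Thy1 gave 3.861 and 4.548 against 3.516 and 2.929.

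The promoter windows of the 4 TNF receptors are shown because Tnfrsf18, Tnfrsf9 and Tnfrsf4 had lower estimates in 5D and Tnfrsf1b, with the same chromosome and family, did not differ by more than its spread. RefSeq (GRCm38.p6) windows were at hand for 7 of the 10 genes, with 2 starts for Tnfrsf9. The stretches cover the 250 bases before a RefSeq start, or as much of them as lies outside every GENCODE M21 exon, and are read 5′ to 3′ on the strand of the gene. Capitals mark a match to GGAAAA, the core that NFAT factors bind, on either strand (TTTTCC on the shown strand).
Tnfrsf18, chr4:156026072-156026163 (+): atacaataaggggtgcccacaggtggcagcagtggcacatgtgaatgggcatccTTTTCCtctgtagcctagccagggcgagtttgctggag
Tnfrsf9, first start, chr4:150919905-150920154 (+): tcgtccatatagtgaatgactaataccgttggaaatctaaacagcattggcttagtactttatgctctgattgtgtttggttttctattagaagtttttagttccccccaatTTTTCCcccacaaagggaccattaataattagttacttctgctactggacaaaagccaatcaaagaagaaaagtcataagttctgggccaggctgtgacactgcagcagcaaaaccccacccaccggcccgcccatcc
Tnfrsf4, chr4:156013611-156013694 (+): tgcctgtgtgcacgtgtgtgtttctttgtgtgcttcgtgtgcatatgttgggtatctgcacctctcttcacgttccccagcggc
Tnfrsf1b, chr4:145246871-145247120 (-): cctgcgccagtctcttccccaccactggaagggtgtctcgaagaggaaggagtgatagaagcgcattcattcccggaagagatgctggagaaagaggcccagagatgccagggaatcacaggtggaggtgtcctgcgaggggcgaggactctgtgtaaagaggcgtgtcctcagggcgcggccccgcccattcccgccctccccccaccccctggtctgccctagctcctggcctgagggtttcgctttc
One match stood 196 bases before the RefSeq start of Tnfrsf18 and one 138 bases before the first start of Tnfrsf9, and no match was in the stretches of Tnfrsf4 and Tnfrsf1b. GGAAAA on either strand was present in 20.4% of the 32851 RefSeq windows of 250 bases, so a match in a window is common. The window of the second Tnfrsf9 start, chr4:150927749-150927998, held 1 match to the AP-1 site TGANTCA (6.75% of all windows) at 15 bases before the start and 2 overlapping matches to the NF-kB consensus (3.9% of all windows) at 43 and 42 bases, in bases that GENCODE M21 counts as exon. Ctla4 held 1 GGAAAA match at 145 bases before its start, and the windows of Icosl and Pdcd1 held none of the 3 motifs. These matches are letters in a window, and binding was not measured.

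Icos, the inducible costimulator, had the highest level of the 10, and lies at chr1:60977927-61000320 on the plus strand. It was measured at 823.4 and 822.0 normalized CPM with vehicle and at 778.9 and 825.5 with 5D. The vehicle libraries were nearly equal, and the 5D libraries lay on both sides of them. On the log2 scale the fold change was -0.04 ± 0.041 (SE; 95% interval -0.13 to 0.05), which as a fold is an interval from 0.916 to 1.04 times vehicle, and the adjusted p was 0.904. At this depth, of 16451 to 23603 counts per library, the interval excludes a difference of the size estimated for Tnfrsf18. Without 5D replicate 1 the estimate was 0.00086 on the log2 scale.

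Icosl encodes the ligand of ICOS and lies at chr10:78069302-78083913 on the plus strand. ILC2s are known to carry both the receptor and its ligand. The libraries held 12.49 and 10.59 normalized CPM with vehicle and 14.0 and 14.55 with 5D. Both 5D libraries were above both vehicle libraries, and the difference of 2.735 CPM between the means was larger than the gap of 1.9 CPM between the vehicle libraries. This corresponded to a log2 fold change of 0.30 ± 0.16 (SE; 95% interval -0.04 to 0.65), with an unadjusted p of 0.0750 and an adjusted p of 0.724. The unadjusted p was 0.0418 without vehicle replicate 1 (log2 fold change 0.43), and the log2 fold change was 0.19 without vehicle replicate 2. ICOS receptor RNA stood at 802.2 ± 32.94 CPM (SD, n = 2) in 5D-treated ILC2s against 822.7 ± 0.966 in vehicle-treated ones, while ligand RNA stood at 14.28 ± 0.387 against 11.54 ± 1.338 CPM.

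Pdcd1 encodes PD-1, an inhibitory receptor of activated lymphocytes, and lies at chr1:94038305-94052553 on the minus strand. It was at 195.7 and 191.5 normalized CPM with vehicle and at 203.2 and 196.4 with 5D. The 5D libraries lay above the vehicle libraries by a margin of less than 1 CPM, and the groups overlapped once the upper quartile was computed on the filtered genes. The log2 fold change was 0.05 ± 0.053 (SE; 95% interval -0.07 to 0.16), with an adjusted p of 0.907. Pdcd1 had 3832 to 5617 counts per library.

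Ctla4 encodes CTLA-4, which competes with CD28 for the B7 ligands, and lies at chr1:60887000-60915832 on the plus strand, 62.1 kb before Icos. It was near the bottom of what the libraries could resolve, with 24 and 37 counts with vehicle and 50 and 22 with 5D. The highest and the lowest of the 4 normalized values were a vehicle library at 1.849 CPM and a 5D library at 0.7694 CPM, and the groups overlapped. Its log2 fold change was -0.14 ± 0.52 (SE; 95% interval -1.27 to 1.00), or 0.414 to 2.00 times vehicle, and it includes a difference of the size estimated for Tnfrsf4. The exact 95% Poisson intervals of the 5D libraries, 1.367 to 2.429 and 0.4822 to 1.165 CPM, did not overlap, so these libraries differed beyond counting error. The estimate was 0.33 without vehicle replicate 2 and 0.36 without 5D replicate 2.

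Klrg1 encodes an inhibitory lectin-like receptor for cadherins that marks activated and mature ILC2s, and lies at chr6:122270596-122282882 on the minus strand. The vehicle libraries held 240.9 and 233.6 normalized CPM and the 5D libraries 205.5 and 221.9. Both 5D libraries were below both vehicle libraries, with a difference of -23.55 CPM between the means (5D minus vehicle) and a gap of 16.4 CPM between the 5D libraries. The log2 fold change was -0.15 ± 0.055 (SE; 95% interval -0.27 to -0.03), with an unadjusted p of 0.0194 and an adjusted p of 0.566. Without 5D replicate 1 the log2 fold change was -0.10 with an unadjusted p of 0.151, and without vehicle replicate 1 it was -0.13 with an unadjusted p of 0.0664, by edgeR's quasi-likelihood test.

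Thy1 encodes the glycoprotein Thy-1 (CD90), carried by T cells and innate lymphocytes and often used to identify ILC2s, and lies at chr9:44043384-44048579 on the plus strand. It was counted 266 and 261 times with vehicle and 275 and 245 times with 5D, or at 11.45 and 13.04 against 10.13 and 8.569 normalized CPM. The groups did not overlap after scaling to the library totals, although the raw counts did. As a log2 fold change the difference was -0.39 ± 0.17 (SE; 95% interval -0.76 to -0.01), with an unadjusted p of 0.0439 and an adjusted p of 0.656. The unadjusted p was 0.0972 in DESeq2, 0.187 in edgeR without vehicle replicate 2 (log2 fold change -0.30) and 0.227 without 5D replicate 2 (log2 fold change -0.27).

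**Figure D3:**
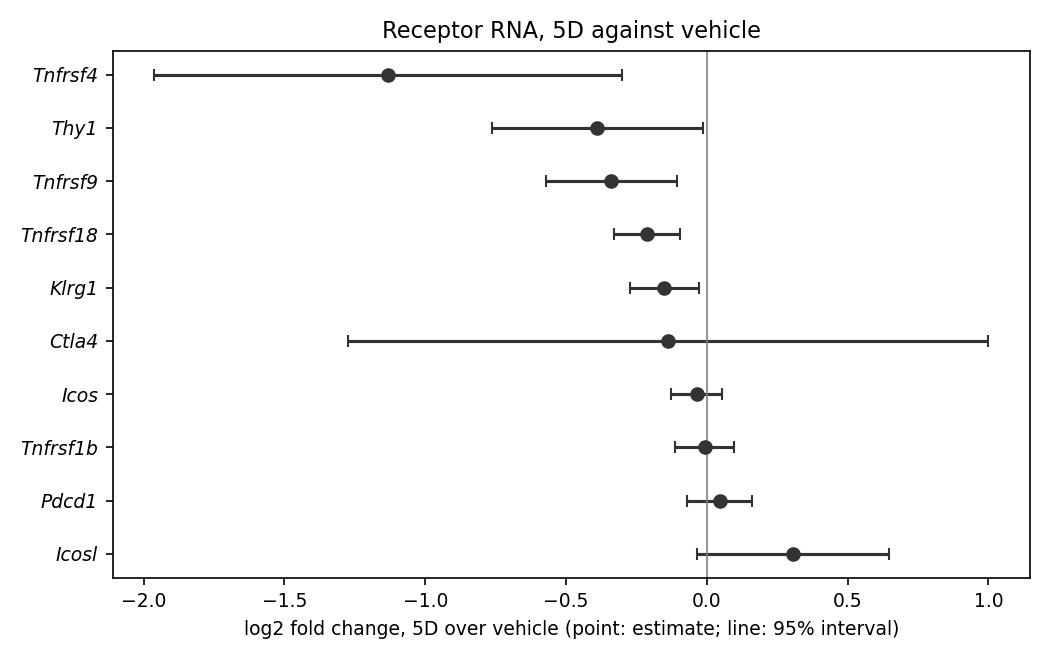
Log2 fold change of 5D over vehicle (horizontal axis) for each receptor gene, with the point as the estimate and the line as its 95% interval from edgeR. The interval lies below 0 for Tnfrsf4, Thy1, Tnfrsf9, Tnfrsf18 and Klrg1 and includes 0 for the other genes, and it is widest for Ctla4.

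Levels were compared between the genes as normalized CPM per kb of exon length. In vehicle-treated ILC2s the order was Icos at 239.9 CPM per kb, Klrg1 at 167.8, Tnfrsf18 at 166, Pdcd1 at 100.3, Tnfrsf1b at 76.4, Tnfrsf9 at 13.16, Thy1 at 4.089, Icosl at 2.498, Tnfrsf4 at 1.954 and Ctla4 at 0.6185. The span from the highest to the lowest was 388-fold with vehicle and 417-fold with 5D, and the order was the same in both groups. Klrg1 and Tnfrsf18 overlapped between libraries in both groups and changed places when the length of the longest transcript was used. Icosl overlapped with Tnfrsf4 in the vehicle libraries only, where they stood at 2.703 and 2.293 against 2.334 and 1.574 CPM per kb, and Thy1 overlapped with Icosl in the 5D libraries, where they stood at 3.383 and 2.861 against 3.031 and 3.149. Icos was above 98.7% of the tested genes by level per kb in vehicle, and Ctla4 was above 32.2% of them. The 10 genes together summed to 1866 and 1858 normalized CPM with vehicle and to 1743 and 1814 with 5D, of which Icos gave 44.1% to 45.5%.

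**Figure D4:**
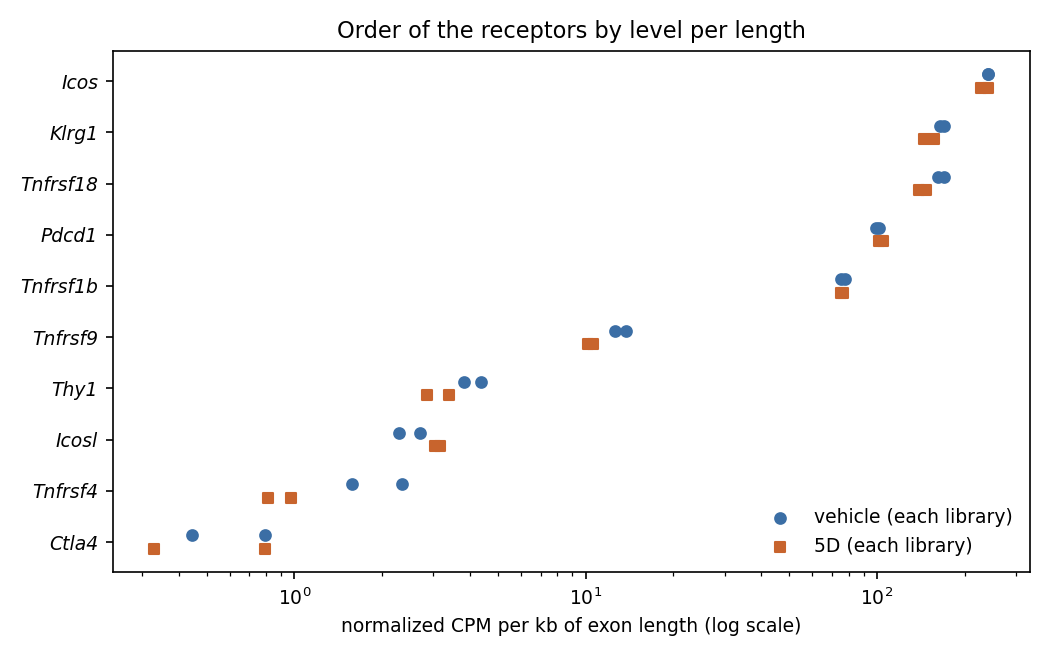
Normalized CPM per kb of exon length (horizontal axis, log scale) of each receptor gene in each vehicle library (circles) and each 5D library (squares), ordered by the vehicle mean. Icos, Klrg1, Tnfrsf18, Pdcd1 and Tnfrsf1b form the upper group above 70 CPM per kb, and the gap to Tnfrsf9 is the largest between neighbours.

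Beyond the 4 TNF receptors above, 15 other TNF receptor genes were tested. Of these, 10 had a higher and 5 a lower estimate in 5D, 0 passed the adjusted threshold in edgeR as run here, and 1 was lower at an unadjusted p of 0.05. Their median log2 fold change was 0.04. That gene was Tnfrsf8, which encodes CD30 and lies 20.3 kb from Tnfrsf1b. It held 238 and 250.1 normalized CPM with vehicle and 196 and 197.1 with 5D, so the groups stood well apart. Its log2 fold change was -0.31 ± 0.052 (SE), with an unadjusted p of 7.782e-05 and an adjusted p of 0.0654 in edgeR. Its adjusted p depended on the setting, and ran from 9.02e-05 with DESeq2 to 0.0721 with all 4 libraries. It was under the threshold with limma-voom (0.0265) and, in edgeR, with no filter (0.0128), filterByExpr (0.0358), the replicate block (0.0172), the upper quartile over the filtered genes (0.0487) and without vehicle replicate 1 or 2 (0.000484 and 0.0253). Without 5D replicate 1 or 2 it was 0.136 and 0.193 in edgeR. The lymphocyte receptor genes Tnfrsf25, which encodes DR3, at 102.8 and 108.7 against 115.4 and 111 CPM, and Tnfrsf11a, which encodes RANK, at 26.95 and 26.18 against 28.48 and 31.16 CPM, did not pass the unadjusted threshold.

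The tested TNF receptor genes of chromosome 4 were set beside those of the other chromosomes after their values were seen, so their counts are a description. Of 7 on chromosome 4, 5 had a lower estimate, 4 of them at an unadjusted p of 0.05 (3.84% over all tested genes). These 4 were Tnfrsf8 and the receptors Tnfrsf4, Tnfrsf9 and Tnfrsf18 described above, and for the 7 genes the log2 fold changes had a median of -0.21. Of 12 on other chromosomes, 4 had a lower estimate, 0 passed in either direction, and the median was 0.04. The 2 sets differed in level. On other chromosomes the group means were at most 29.82 CPM, with SEs from 0.1104 to 1.03. On chromosome 4, Tnfrsf1b, Tnfrsf18, Tnfrsf8 and Tnfrsf25 had 105.8 to 291.7 CPM with vehicle, with SEs from 0.04784 to 0.06512, and the other 3 had 2.667 to 35.83 CPM. A small difference was thus harder to detect on the other chromosomes, and the part of level was not tested. Tnfrsf4 and Tnfrsf18 are 9.55 kb apart with no coding gene between them, while the other pairs among the 4 listed receptors are megabases apart. Sdf4, which ends 0.232 kb before Tnfrsf4, had a log2 fold change of -0.11 ± 0.048 (SE, unadjusted p = 0.0451 in edgeR). Park7, which lies 0.124 kb from Tnfrsf9, had -0.03 ± 0.051 (unadjusted p = 0.515 in edgeR). Camta1, a coding gene whose span overlaps that of Tnfrsf9 on the other strand, had -0.30 ± 0.17 (unadjusted p = 0.0956 in edgeR).

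**Figure D5:**
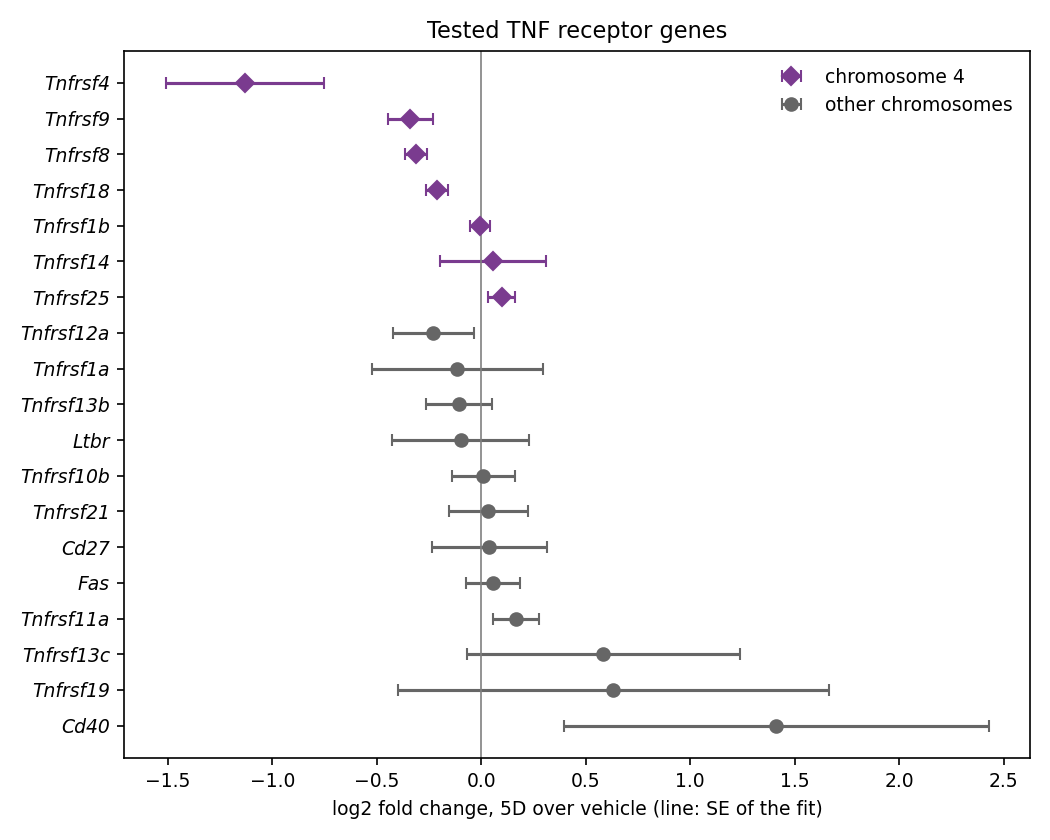
Log2 fold change of 5D over vehicle (horizontal axis; line, SE of the fit) for the 19 tested TNF receptor genes, those on chromosome 4 as diamonds and the others as circles, ordered by estimate within each set. Tnfrsf4, Tnfrsf9, Tnfrsf8 and Tnfrsf18 on chromosome 4 and Tnfrsf12a elsewhere lie to the left of 0 by more than their SE. Tnfrsf25 on chromosome 4 and Tnfrsf11a and Cd40 elsewhere lie to the right of 0 by more than theirs, and both sets hold receptors on either side of 0.

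Of 17 TNF ligand genes, 10 were tested, with 5 lower and 5 higher estimates, 0 past either threshold and a median log2 fold change of 0.0022. The OX40 ligand gene Tnfsf4 had 547 and 563 counts with vehicle and 752 and 779 with 5D (log2 fold change 0.09 ± 0.12 SE), and the 4-1BB ligand gene Tnfsf9 had 427 and 310 against 468 and 399 (-0.12 ± 0.16). Each of these signs turned when a library was left out. The GITR ligand gene Tnfsf18 had 2, 0, 0 and 4 counts and was not tested. Of the ligands of TNFR2, Tnf was at 7.147 and 6.896 against 8.696 and 7.344 normalized CPM (log2 fold change 0.19 ± 0.19 SE). Lta, which encodes lymphotoxin alpha, was at 30.83 and 28.83 against 27.52 and 22.63 CPM, with a log2 fold change of -0.25 ± 0.12 (SE) and an unadjusted p of 0.0675 in edgeR. For Lta the value was -0.40 (unadjusted p = 0.0175) without 5D replicate 1, -0.30 (unadjusted p = 0.0418) without vehicle replicate 2 and -0.12 (unadjusted p = 0.431) without 5D replicate 2, all in edgeR. Tnfsf10, which encodes TRAIL, had -0.12 ± 0.099 and Tnfsf11, which encodes RANKL, had 0.20 ± 0.17 on the same scale.

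All 16 adaptor and regulator genes below the TNF receptors were tested, of which 10 had a lower and 6 a higher estimate, with a median log2 fold change of -0.05. None passed the adjusted threshold in edgeR, and 1 was lower at an unadjusted p of 0.05, which was Traf6, a ubiquitin ligase also used by the IL-33 receptor pathway. Traf6 was at 56.23 and 56.07 normalized CPM with vehicle and at 41.6 and 50.68 with 5D (log2 fold change -0.28 ± 0.10 SE, unadjusted p = 0.0188 in edgeR). Without 5D replicate 1 its log2 fold change was -0.15 with an unadjusted p of 0.192 in edgeR. The NF-kB target and inhibitor gene Tnfaip3, at 24.58 and 25.28 against 19.05 and 22.56 CPM, and Traf4, at 15.46 and 19.29 against 15.07 and 12.66 CPM, had unadjusted p-values of 0.0637 and 0.0685 in edgeR.

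In the CD28 and B7 family outside the 10 genes, 7 were tested, 3 with a lower and 4 with a higher estimate, and the median log2 fold change was 0.01. None passed the adjusted threshold in edgeR, and 1 was higher at an unadjusted p of 0.05, which was Cd28, the founding costimulatory receptor of T cells, 114 kb before Ctla4. Cd28 had 112 and 60 counts with vehicle and 185 and 174 with 5D (log2 fold change 0.71 ± 0.26 SE, unadjusted p = 0.0191 in edgeR). The value without vehicle replicate 1 was 1.10 and without vehicle replicate 2 it was 0.42 with an unadjusted p of 0.154 in edgeR. Along that stretch of chromosome 1, Cd28 had a higher estimate in 5D, Ctla4 overlapped between groups, and Icos differed by less than its spread. Gm37039, whose span overlaps that of Icos on the same strand, had 116 and 96 counts with vehicle and 86 and 87 with 5D. Its log2 fold change was -0.66 ± 0.25 (SE, unadjusted p = 0.0231 in edgeR). The pseudogene Rpl18-ps1, whose span overlaps that of Ctla4, had 0.16 ± 0.18 (SE). The PD-1 ligand genes stood at 8.568 and 7.695 against 9.875 and 10.42 CPM for Cd274 (log2 fold change 0.32 ± 0.17 SE, unadjusted p = 0.0943 in edgeR) and at 10.2 and 10.14 against 8.622 and 9.793 CPM for Pdcd1lg2 (-0.14 ± 0.17). Of the B7 genes whose products bind CTLA-4, Cd80 had 16 to 31 counts per library and Cd86 had 0 to 4 and was not tested. Btla, an inhibitory receptor, had 28 and 24 counts with vehicle and 15 and 16 with 5D (log2 fold change -1.11 ± 0.52 SE, unadjusted p = 0.0564 in edgeR).

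Among 17 other tested checkpoint receptors and ligands, 8 had a lower and 9 a higher estimate, 0 passed the adjusted threshold in edgeR, and the median log2 fold change was 0.04. Cd160, which encodes a receptor for HVEM, was higher at an unadjusted p of 0.0192, with 44 and 51 counts with vehicle and 113 and 104 with 5D (log2 fold change 0.82 ± 0.30 SE). The unadjusted p of Cd160 was 0.109 without vehicle replicate 1 and 0.104 without 5D replicate 1 in edgeR. The gene counted as lower at the unadjusted threshold was Klrc1, with 10 counts in vehicle replicate 1 and 0 in the other 3 libraries, a difference that rests on that library alone. Lair1, a collagen receptor gene, had 69 and 65 counts with vehicle and 128 and 108 with 5D, with an unadjusted p of 0.121 in edgeR.

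Of 20 signaling genes below ICOS and the checkpoint receptors, all were tested, and 11 had a lower and 9 a higher estimate, with 0 adjusted calls in edgeR and a median log2 fold change of -0.02. Pik3ca, a catalytic subunit of phosphatidylinositol 3-kinase, was at 57.22 and 55.17 normalized CPM with vehicle and at 66.91 and 66.66 with 5D (log2 fold change 0.25 ± 0.079 SE, unadjusted p = 0.00870 in edgeR). Akt1, the kinase downstream of it, was at 488.1 and 475.9 against 460.5 and 428 CPM (-0.12 ± 0.048 SE, unadjusted p = 0.0308 in edgeR), and without 5D replicate 2 its unadjusted p was 0.240 in edgeR at -0.07. The kinase gene Fyn, at 124.5 and 118.4 against 131.4 and 132.3 CPM, had an unadjusted p of 0.0773 in edgeR. Other catalytic subunit genes of phosphatidylinositol 3-kinase on the list differed by less than their SE. Pik3cd had mean levels of 395 CPM with vehicle and 399.3 with 5D (log2 fold change 0.02 ± 0.046 SE), and Pik3cg had 175.7 and 172 (-0.03 ± 0.068).

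For KLRG1 and Thy-1, 9 ligand genes were tested, with 3 lower and 6 higher estimates, a median log2 fold change of 0.05 and 0 adjusted calls in edgeR. Itgb3, the beta subunit of an integrin that binds Thy-1, was at 447.9 and 447.4 normalized CPM with vehicle and at 460.3 and 516.1 with 5D (log2 fold change 0.13 ± 0.054 SE, unadjusted p = 0.0404 in edgeR). Without 5D replicate 2 the log2 fold change was 0.04 with an unadjusted p of 0.498 in edgeR. Of the cadherin genes, Cdh1, which encodes E-cadherin, had 1 and 2 counts with vehicle and 6 and 14 with 5D, and Cdh2, which encodes N-cadherin, had 10.42 and 11.14 against 11.46 and 13.39 CPM (log2 fold change 0.21 ± 0.16 SE).

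Among the defining ILC2 markers, Ptprc had a log2 fold change of 0.07 ± 0.044 (SE), Il7r 0.0093 ± 0.074, Gata3 0.0079 ± 0.035 and Il1rl1 0.12 ± 0.049, the last with an unadjusted p of 0.0304 in edgeR. For Il1rl1 the value was 0.06 (unadjusted p = 0.285) without 5D replicate 2 and 0.08 (unadjusted p = 0.189) without vehicle replicate 2, both in edgeR. Of the 11 tested ILC2 markers, 2 were lower and 1 higher at the unadjusted threshold, 0 passed the adjusted one in edgeR, and the median was 0.0093. The 2 lower ones were Il2ra (log2 fold change -0.23 ± 0.041 SE, unadjusted p = 0.000129) and Il5 (-0.08 ± 0.029 SE, unadjusted p = 0.0127), both from edgeR.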

How the data were processed

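RNA was sequenced from 4 libraries of sorted lung ILC2s. Per the labels and the methods of the study, the authors used the SMARTer Ultra Low Input kit and aligned reads to mm10 with STAR 2.6.1 (CASAVA 1.8.2 before it), and quantified them in Partek with the GENCODE M21 annotation. Such kits do not mark strand, and whether strand entered the counting is not given in the sources used here. The authors deposited expected counts per gene before normalization. They were estimated, with 54.9% to 58.4% of the values whole within 0.001, and the counts were rounded to whole numbers here. The receptor genes and the pathway and marker lists were chosen with earlier results of these data known.

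Groups were taken from the sample labels. Counts were scaled by upper quartile factors over all genes (0.9958 to 1.008) and genes were kept when their normalized counts averaged 1 or more and summed to 10 or more, which left out 4904. The test was edgeR 4.0.16's quasi-likelihood test (R 4.3.3), two-sided, without covariates, with Benjamini-Hochberg adjustment over 17650 genes at 0.05, tested on simulated data. Gene Set Analysis, which the authors used, was not run. The smallest library had 20096555 counts, and the common biological coefficient of variation was 8.51%. Replicate libraries varied beyond counting noise (chi-square per degree of freedom 6.1 and 6.66).

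Alternatives were TMM, DESeq2 size factors, total counts, the upper quartile after the filter, DESeq2 1.42.0's Wald test, limma-voom (limma 3.58.1), no filter, filterByExpr, no mitochondrially encoded genes, a replicate block, a 2-fold threshold, other lengths and each library left out. Positions came from GENCODE M21, since stops in the deposited table were 1 base higher for 21910 of the 22080 genes whose symbols matched. Near-identical genes were sought with BLAST 2.17.0 at 95% over 150 bases. The only match was Gm16008, the antisense gene that shares exon bases with Tnfrsf18 at the same locus. Named were the 10 genes, their ligands, the defining ILC2 markers Ptprc, Il7r, Il1rl1 and Gata3, and from each pathway list the genes with an adjusted p under 0.05 or else the 3 with the smallest unadjusted p. Other genes were named after their values were seen. The 18 listed genes that were not matched were not analysed here.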

Additional observations from a re-analysis of the deposited data

How the results depend on the processing

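No receptor gene passed the adjusted threshold under any alternative that kept the 4 libraries (DESeq2 gave no adjusted p for Tnfrsf4 and Ctla4). With libraries left out one at a time, each fit leaving a lone library assumed to vary like the other group, 0 to 1 receptor genes were lower and 0 were higher at the adjusted threshold, 3 to 4 were lower and 0 to 1 higher at the unadjusted one, and over all genes 12 to 107 were lower and 3 to 73 higher at the adjusted one. The share of all tested genes at the unadjusted threshold was not counted with a library left out. Whether the receptor counts at that threshold were unusual in those fits was therefore not tested. In the fit with all 4 libraries, a 2-fold condition left 1 receptor gene at the unadjusted threshold, Tnfrsf4. With the upper quartile over the filtered genes, 1 receptor gene had both 5D libraries above vehicle, in place of 2, and 6 had both below, in place of 5. This setting shifted the log2 fold changes by a median of -0.01274, and the share of all tested genes with separate groups was not counted under it. With the longest transcript as length, 2 genes stood at another rank.

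Over all genes, 12 were lower and 5 higher at the adjusted threshold, and the alternatives gave 43 and 17 with DESeq2's Wald test, 23 and 9 with limma-voom, and 35 and 11 without a filter. With the replicate block, 32 were lower and 9 higher, 0 receptor genes passed the adjusted threshold and 5 were lower at the unadjusted one. Deviations of same-numbered libraries from their group means correlated at r = 0.0362 over 9837 genes. This value cannot show whether the libraries were paired, since other differences between libraries can hide a shared origin.

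The estimates that changed sign were each smaller than their SE in the fit with all 4 libraries. With a library left out, Icos ran from -0.08093 to 0.00086, Tnfrsf1b from -0.03331 to 0.01449, Ctla4 from -0.898 to 0.3589, Tnfsf4 from -0.03756 to 0.2199, Tnfsf9 from -0.2852 to 0.02205, Il7r from -0.0758 to 0.08336 and Gata3 from -0.0028 to 0.01262 on the log2 scale. Tnfrsf1b was 0.0024 with TMM, and an upper quartile over the filtered genes gave -0.0039 for Il7r and -0.0050 for Gata3. The share of lower genes among those at the unadjusted threshold moved from 52.3% to between 47.5% and 59.2% over the scalings, and the cause of these changes was not tested. Ctla4 and Tnfrsf4 had at most 74 counts in a library.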
